A study of Mus musculus with 10 samples.

Results

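Peg3, the paternally expressed zinc finger gene, was examined together with 9 other imprinted genes that act on growth: Meg3, H19, Igf2, Dlk1, Mest, Cdkn1c, Plagl1, Ndn and Grb10. Peg3 had been picked by its low level in stromal cells of the Bbs8 KO mouse, so its own KO to WT difference in those cells is given below as a description and supports nothing. The other 9 were taken by name as well known members of the imprinted growth network. Of the 10 symbols, 9 were found among the 14623 genes of the count table, and Igf2 was not analysed here. The question asked of them was whether the other imprinted genes follow Peg3, in which stromal subtypes and in which other cell classes.

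Imprinted genes are expressed mainly from the maternal or the paternal allele, according to methylation marks set in the germ line. Many of them form a network of fetal growth genes whose levels decline after birth and remain in progenitor cells of several adult tissues. In fat, Dlk1 (also Pref-1) holds back the differentiation of preadipocytes, Mest goes with the enlargement of adipocytes, and Ndn and Peg3 have been tied to the formation of fat cells and to energy balance. The allele of origin was not analysed here.

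The cells came from the stromal vascular fraction of inguinal white adipose tissue (iWAT), the cells that remain when adipocytes are removed, of a lean 7-week-old Bbs8-/- mouse (KO) and a Bbs8+/+ mouse (WT). Bbs8 (gene symbol Ttc8) encodes a subunit of the BBSome, the complex that moves membrane proteins in and out of the primary cilium, and it was deleted in the whole body. RNA molecules of single cells were counted by their molecular identifiers (UMIs) with Seq-Well S3. The design of the series names 1 mouse per genotype, with 5 labelled samples each, so no difference between genotypes has a replicate check and no test was run. The columns of the table formed 5 barcode sets per genotype, whose ranges would then be technical. The codes of the sets carry 2 numbers per genotype that the labels do not explain, and although each sample was run on a pair of arrays, whether the numbers mark arrays or animals is not given in the sources used here.

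The KO sets held 1635 to 2005 cells and 538160 to 701136 UMIs, and the WT sets held 196 to 768 cells and 68989 to 303732 UMIs. Median UMIs per cell were 228 to 264 in the KO sets and 270.0 to 300.0 in the WT sets. Ttc8 had 0 UMIs in the 5 KO sets and 5 UMIs in the WT sets, all of them in a single set. Of 10847 barcodes, 36 occurred in more than 1 set. Clusters carrying the pan-stromal markers held 1894 KO and 763 WT cells. Adipocyte precursor markers divided them into stem-cell-like P1 (465 KO and 194 WT cells), committed P2 (1197 and 454) and regulatory P3 (232 and 115). The P2 name was the weakest. Against a naming mark of 0.5, the larger P2-like cluster (1248 cells) had a mean log2 fold of 0.54 and 3 of 8 P2 markers. The smaller (403 cells) had 0.65 and 5 markers, while the P1-like cluster had 2.44 and the P3-like cluster 2.77. P2-like cells were 63.2% of KO and 59.5% of WT stromal cells, P1-like cells 24.6% and 25.4%, and P3-like cells 12.2% and 15.1%.

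The table does not list rare genes evenly, and this bears on every low member. Among pairs of a gene and a set, 10161 had UMIs in exactly 3 cells, but 4489 in 2 cells and 762 in 1 cell. Genes seen in fewer than about 3 cells of a set were therefore mostly listed at 0 in that set. The WT sets listed 5053 to 10099 genes and the KO sets 11620 to 12380. A 0 in a small WT set may thus stand for a gene with a few UMIs, and where all WT sets list a gene at 0 no fold is given.

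**Figure D1:**
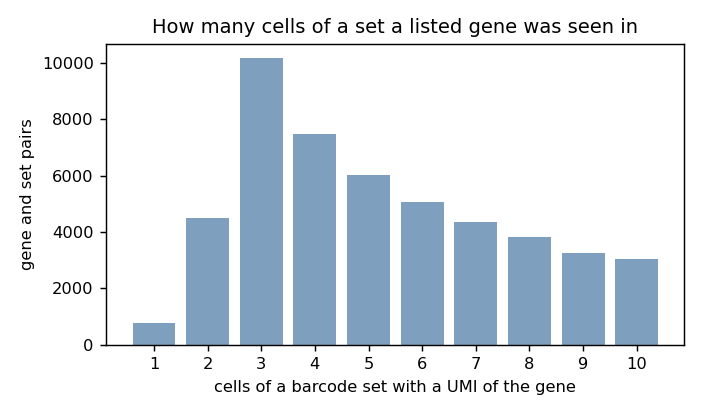
Number of gene and barcode set pairs (vertical axis) by the number of cells of the set in which the gene had a UMI (horizontal axis, 1 to 10 cells). The bar at 3 cells (10161 pairs) is the highest, and the bars at 1 cell (762) and 2 cells (4489) are far lower.

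Peg3 lies at chr7:6703892-6730431 (GRCm38, minus strand) and encodes a zinc finger protein that binds DNA. In stromal cells its level, as UMIs per 1000000 UMIs of the class (CPM), was 182, 183, 220.2, 229 and 239.8 in the KO sets and 499.7, 577, 714, 833 and 1082 in the WT sets. Every KO set lay below every WT set. Summed over all stromal cells, Peg3 had 172 UMIs or 211 CPM in KO (95% Poisson interval 181 to 245) and 228 UMIs or 695 CPM in WT (608 to 792), so it was 3.29-fold lower in KO. The log2 ratio of KO over WT, with 5 CPM added to both levels, was -1.70, and the counting interval of the plain ratio was -2.01 to -1.43. Intervals given here cover counting error only.

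Among the 7240 genes with at least 20 UMIs in stromal cells, 21 had a lower ratio than Peg3. Of these genes, 2.43% had a log2 ratio of -1 or less, 14.1% had a ratio of 1 or more, 1.52% had all KO sets below all WT sets, and 4.96% had all KO sets above all WT sets. The median ratio was 0.15 over these genes and 0.01 over the 3676 of them listed in all 10 sets, of which 2.72% were past -1 and 7.05% past 1.

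Fewer KO stromal cells held a Peg3 UMI. The share was 6.81% of KO cells (129 of 1894, exact binomial interval 5.72 to 8.04%) and 18.7% of WT cells (143 of 763, 16.0 to 21.7%). Cells with a UMI held 1.33 Peg3 UMIs on average in KO and 1.59 in WT. When each cell was thinned to 200 UMIs with its class kept, leaving out 384 KO and 99 WT cells, the shares were 3.71% (2.81 to 4.79%) and 11.7% (9.397 to 14.4%). In T and B cell-like cells, which should lack Peg3, 0.37% of KO cells (median depth 254 UMIs) and 0.77% of WT cells (234 UMIs) held a UMI, against a median depth of 309 and 314 UMIs in stromal cells.

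By subtype, Peg3 in P2-like cells was 186, 229, 257, 269 and 273 CPM in the KO sets and 616, 845, 863, 906 and 1375 CPM in the WT sets. The groups did not overlap, beside 1.62% of all genes with all KO sets below all WT sets in this subtype, and the summed level was 3.78-fold lower in KO (239.6 against 905 CPM, log2 ratio -1.90, -2.27 to -1.57). In P3-like cells the KO sets had 89.9, 157, 269.6, 307 and 315 CPM and the WT sets 529, 634, 780.1, 789.9 and 1053 CPM, again without overlap, beside 0.739% of all genes (235 against 684 CPM, log2 ratio -1.52, -2.36 to -0.75). In P1-like cells the KO sets had 103, 125, 128, 145 and 198 CPM and the WT sets 80.8, 109.8, 301, 559 and 770.1 CPM. Here the groups overlapped, and the summed levels of 142 and 261 CPM gave a log2 ratio of -0.86 (-1.69 to -0.04) from 33 KO and 23 WT UMIs. It was past -1 without KO6_p1 (-1.02), WT3_p1 (-1.01) or WT4_p2 (-1.34), and -0.50 without WT3_p2. Over all genes with at least 20 UMIs in the subtype, the share with a log2 ratio of -1 or less was 6.08% in P1-like, 3.82% in P2-like and 6.37% in P3-like cells. In WT, the Peg3 level was highest in P2-like cells, next in P3-like and lowest in P1-like cells, and the intervals of P2 (774 to 1053 CPM) and P3 (482 to 943 CPM) overlapped. In KO the order was P2, P3 and P1, and all 3 intervals overlapped (198 to 287, 149 to 353 and 97.6 to 199 CPM).

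**Figure D2:**
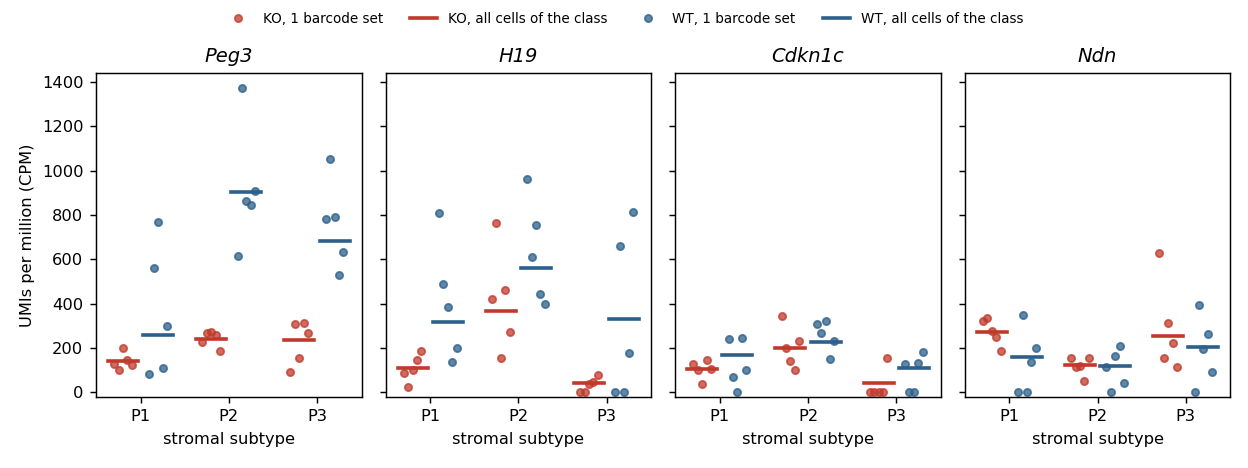
Level (CPM, vertical axis) of Peg3, H19, Cdkn1c and Ndn in P1-, P2- and P3-like cells. Each point is 1 barcode set, red for KO and blue for WT, and each line is the level over all cells of the class. The Peg3 points of KO lie below those of WT in P2 and P3 (at most 273 against at least 616 CPM in P2), while the points of Cdkn1c and Ndn overlap in every subtype.

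The P2-like class was made of 2 clusters, and both had the same direction. Peg3 was 206 CPM in KO and 934 CPM in WT in the larger cluster (882 and 366 cells), a 4.54-fold difference, and 281 and 830.3 CPM in the smaller cluster (315 and 88 cells), a 2.96-fold difference. In the smaller cluster the sets overlapped, from 239 to 307 CPM in KO and from 0 to 2186 CPM in WT. In the larger cluster mitochondrial UMIs were 8.54% in KO (7.48 to 9.57% over the sets) and 6.60% in WT (5.29 to 7.38%), and 13 blood cell genes summed to 6466 and 1062 CPM; their part in the Peg3 ratio was not tested there. Peg3 was the gene with the highest fold over all other cells in the larger cluster, although Peg3 and the other members were left out of the features used for clustering.

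Other measures of the stromal cells moved with the genotype. UMIs of 13 blood cell genes (such as Cd79a, Cd3e and Cd74) came to 3964 CPM in KO stromal cells (2912 to 4669 over the sets) and 1049 CPM in WT stromal cells (313 to 1325). Mitochondrial UMIs were 6.45% in KO and 6.15% in WT. The 8 pan-stromal markers summed to 68137 CPM in KO and 84335 CPM in WT, a log2 ratio of -0.31. The P2 markers had a ratio of -0.53, the P3 markers -0.75 and the P1 markers 0.17. Among stromal cells with no UMI of the blood cell genes (774 KO and 618 WT cells), the Peg3 log2 ratio was -1.40. The part of these differences in the Peg3 ratio was otherwise not tested.

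Next to Peg3, at chr7:6671269-6696450 on the same strand, lies Zim1, another zinc finger gene of the same imprinted domain. It is no member, and was among 60 other imprinted genes listed for comparison. Zim1 in stromal cells was 0, 16.3, 19.6, 20.2 and 29.5 CPM in the KO sets and 0, 76.5, 79.0, 125 and 130.4 CPM in the WT sets. The KO and WT sets overlapped, and 1 WT set listed Zim1 at 0. With 15 KO and 28 WT UMIs the log2 ratio was -1.95 (interval of the plain ratio -3.22 to -1.26), and 12 genes had a lower one. In P2-like cells Zim1 had 7 KO and 20 WT UMIs (14.5 and 108 CPM), and in P3-like cells 7 and 4 (71.5 and 73.9 CPM), where the interval of -2.02 to 2.17 left the direction undetermined.

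The stretches before the starts of Peg3 and Zim1 are shown because these neighbours had the lowest ratios of all imprinted genes measured, and because imprinting acts through methylation at CpG pairs, which are in capitals. Each is the 250 bases before the gene start in RefSeq (GRCm38.p6), read 5′ to 3′ on the minus strand: chr7:6730420-6730669 for Peg3 and chr7:6696433-6696682 for Zim1.
Peg3: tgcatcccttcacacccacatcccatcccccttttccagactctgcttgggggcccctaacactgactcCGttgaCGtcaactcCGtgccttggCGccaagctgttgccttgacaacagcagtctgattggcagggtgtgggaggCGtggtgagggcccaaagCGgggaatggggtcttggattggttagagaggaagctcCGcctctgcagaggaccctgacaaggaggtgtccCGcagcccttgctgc
Zim1: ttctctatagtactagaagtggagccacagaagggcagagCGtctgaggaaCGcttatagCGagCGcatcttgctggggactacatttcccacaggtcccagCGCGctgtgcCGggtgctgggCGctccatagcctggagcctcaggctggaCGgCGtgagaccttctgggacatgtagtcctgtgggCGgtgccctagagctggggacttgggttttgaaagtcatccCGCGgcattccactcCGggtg
The Peg3 stretch held 8 CpG pairs and the Zim1 stretch 14. Searching for the letters CG (the same on both strands), 43% of 32851 such stretches held at least as many as Peg3 and 29.4% at least as many as Zim1, with a median of 6. Methylation was not measured in these cells, and whether either stretch carries a mark set in the germ line is not given here.

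The other transcription factor among the members, Plagl1 (chr10:13060504-13131694, plus strand), is a zinc finger activator of other genes of the network. It had 10 UMIs in KO stromal cells, with 0, 4.92, 14.7, 19.6 and 20.2 CPM in the sets, and was listed at 0 in all WT sets. Of the 10 UMIs, 6 lay in P1-like cells (25.8 CPM). No direction between genotypes was drawn for a gene with so few UMIs.

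The ligand side of the network could hardly be measured. No value is given for Igf2, the fetal growth factor. Dlk1 (chr12:109452823-109463336, plus strand), which encodes a membrane protein whose shed part inhibits adipogenesis, had 22 UMIs, all in KO cells, and was listed at 0 in every WT set. It had 0 UMIs in stromal cells: in the 4 KO sets that listed it, 0 of 1583 stromal cells had a UMI, which allows a level of up to 4.42 CPM when 3 counts are taken as the limit of a count of 0. Its KO UMIs lay in pericyte-like cells (7 UMIs in 67 cells, 220.4 CPM, 88.6 to 454), endothelial-like cells (8 UMIs, 29.3 CPM) and elsewhere at 8.84 CPM or less. The WT pericyte-like class held 26 cells.

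Mest (chr6:30723547-30748465, plus strand) encodes a hydrolase-like membrane protein whose level in fat rises with adipocyte growth. It had 40 UMIs in KO cells, was listed in all 5 KO sets and was listed at 0 in all 5 WT sets. In KO stromal cells it had 4.89, 13.5, 14.8, 22.0 and 40.8 CPM in the sets, and in KO endothelial-like cells 16.4, 29.7, 39.4, 50.2 and 80.1 CPM. Because a listed 0 in WT may hide UMIs in up to about 2 cells per set, the KO sets lying above the WT sets is not read as a difference here.

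Cdkn1c, Grb10 and Ndn restrain growth or its signals. Cdkn1c (chr7:143458339-143461050, minus strand) encodes p57, a cyclin-dependent kinase inhibitor that holds cells out of the cycle. Its stromal level was 97.9, 101, 147, 192 and 242 CPM in the KO sets and 166, 174, 191, 208 and 261 CPM in the WT sets, which overlapped. The log2 ratio was -0.32 (-0.77 to 0.14). It turned to 0.16 in stromal cells without a UMI of the blood cell genes.

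Grb10 (chr11:11930508-12038683, minus strand) encodes an adaptor that dampens the insulin and IGF1 receptors. Its stromal level was 132, 142, 155, 158 and 171 CPM in the KO sets and 86.9, 140.3, 174, 187 and 278 CPM in the WT sets. All KO values lay within the WT range, and the log2 ratio was 0.09 (-0.40 to 0.61). It was -0.78, below that interval, when cells were thinned to 200 UMIs and clustered again. Grb10 was higher in P1-like cells (266 CPM in KO and 215 in WT) than in P2-like cells (103 and 86.2 CPM), while Peg3 was higher in P2-like cells. P3-like cells had 133 CPM of Grb10 in KO and 222 CPM in WT, where this was the highest of the subtypes. The intervals of P1 and P2 levels did not overlap in KO (204 to 342 and 76.6 to 136 CPM), and did in WT (130 to 336 and 49.3 to 140.0 CPM).

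Ndn (chr7:62346569-62350262, plus strand) encodes necdin, a MAGE family protein that restrains cell growth and adipogenesis. The KO sets had 142, 158, 181, 188 and 249 CPM and the WT sets 65.2, 89.3, 139, 166 and 198 CPM in stromal cells. These ranges overlapped, and the log2 ratio was 0.32 (-0.15 to 0.84). It turned to -0.07 when cells were thinned to 200 UMIs and clustered again. Within subtypes the ratio was 0.75 in P1-like cells (-0.08 to 1.72), 0.04 in P2-like cells and 0.32 in P3-like cells.

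Both remaining members are non-coding RNAs. H19 (chr7:142575529-142578143, minus strand), a maternally expressed RNA that shares enhancers with Igf2, had 127, 227, 271, 297 and 449 CPM in the KO sets and 308, 408, 556, 582 and 760.5 CPM in the WT sets. The KO and WT sets overlapped. The summed levels were 255 and 457 CPM and the log2 ratio was -0.83 (-1.15 to -0.53), with 4.28% of the 7240 genes lower. H19 was the only other measured member with a counting interval below 0. H19 UMIs lay in few cells, 101 KO and 66 WT stromal cells, with up to 14 UMIs in a cell, so its intervals are too narrow. Single stromal cells also held up to 8 UMIs of Cdkn1c, 7 of Grb10 and 6 of Peg3, so their intervals may be too narrow as well.

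No difference between subtypes was tested for H19. In P1-like cells the KO sets had 25.7, 85.3, 99.1, 145 and 187 CPM and the WT sets 137, 201, 385, 489 and 808 CPM, a log2 ratio of -1.47 (-2.33 to -0.68). In P2-like cells the levels were 368 CPM in KO and 560.5 CPM in WT (-0.60, -0.97 to -0.25), where the sets overlapped. In P3-like cells the KO sets had 0, 0, 39.2, 44.9 and 77.0 CPM and the WT sets 0, 0, 176, 658 and 815 CPM, which overlapped, and the sums of 4 and 18 UMIs were 40.9 and 333 CPM (-2.88, -5.05 to -1.42). Of the 18 WT UMIs, 9 came from WT set WT4_p3, without which the WT level was 209 CPM and the ratio -2.22, while it was -3.36 without KO set KO6_p3. Past a ratio of -1 were 6.08% of all genes in P1-like and 6.37% in P3-like cells. Within P2, the ratio of H19 was -1.02 in the larger cluster and -0.24 (-0.84 to 0.39) in the smaller, where Peg3 was -2.16 and -1.55.

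Meg3 (chr12:109541001-109571726, plus strand), the maternally expressed RNA of the Dlk1 domain, had 88.6, 122, 128, 237 and 256 CPM in the KO sets and 0, 94.8, 109, 140.3 and 187 CPM in the WT sets, 1 of which listed it at 0. The log2 ratio was 0.44 (-0.08 to 1.02). By the numbers in the codes of the sets, the 2 KO sets with the first number had 247 CPM of Meg3 together, while the other KO sets had 112 CPM and the WT numbers 114 and 112 CPM. H19 likewise differed between numbers, with 355 and 209 CPM in KO and 643 and 346 CPM in WT. Peg3 had 201 and 216 CPM in KO and 806 and 629 CPM in WT by these numbers. The share of all genes separated at this level was not computed, and Peg3 had been picked for its stromal levels.

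**Figure D3:**
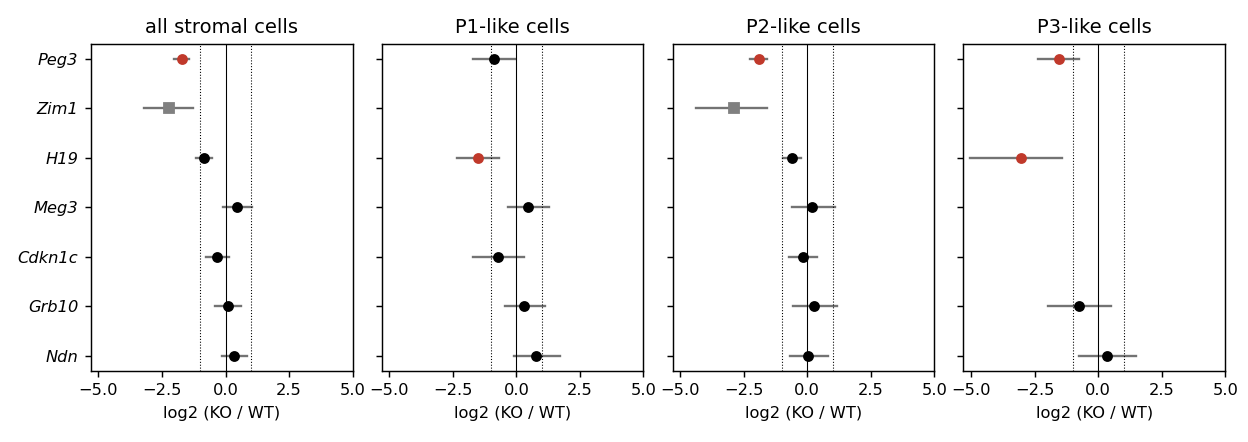
Plain log2 ratio of KO over WT (horizontal axis) of the measured members and of Zim1 (square) in all stromal cells and in each subtype, with exact 95% counting intervals as bars. Genes with under 20 UMIs in a panel are left out, dotted lines mark a 2-fold ratio, and red points are members with a log2 ratio of -1 or less after 5 CPM was added. Peg3 is red in all stromal, P2- and P3-like cells, H19 in P1- and P3-like cells, and Cdkn1c, Grb10, Ndn and Meg3 lie within or across the dotted lines.

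Of the 10 members, 6 had at least 20 UMIs in stromal cells. Peg3, which had been picked for this, was 2-fold or more lower and none was 2-fold or more higher, beside 2.43% and 14.1% of all genes. TMM and DESeq2 size factors moved every plain ratio alike, by -0.19 and -0.20, so that H19 crossed the 2-fold mark (-1.01 and -1.03), and the shares of all genes became 4.06% lower and 10.8% higher with TMM and 4.32% and 10.7% with size factors. The 5 others had ratios from -0.83 to 0.44 with a median of 0.09, against a median of 0.15 over all 7240 genes. The 4 of them listed in all 10 sets (H19, Cdkn1c, Grb10 and Ndn) had a median of -0.11, against 0.01 over all genes so listed. Peg3 UMIs as a share of the UMIs of Peg3 and these 5 genes were 13.7 to 25.5% in the KO sets and 26.7 to 45.6% in the WT sets, or 19.05% (16.5 to 21.8%) and 39.9% (35.8 to 44.0%) over all stromal cells.

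**Figure D4:**
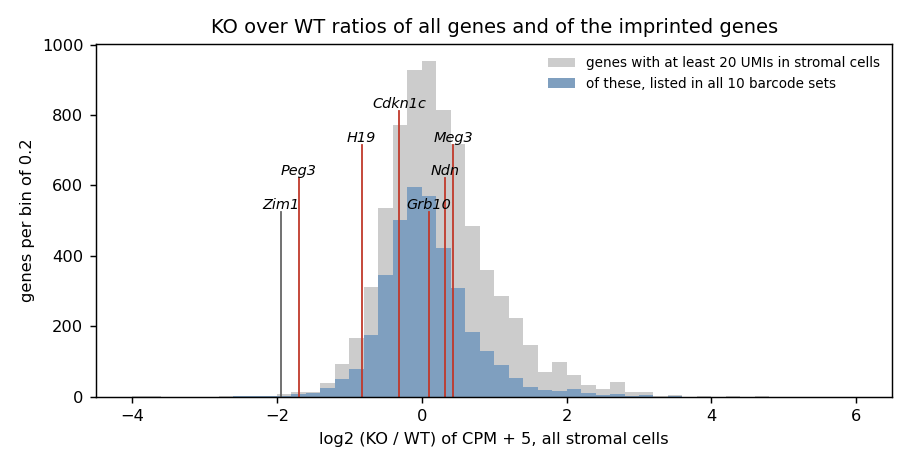
Histogram of the log2 ratio of KO over WT (horizontal axis, 5 CPM added) in stromal cells for 7240 genes with at least 20 UMIs (grey) and for the 3676 of them listed in all 10 barcode sets (blue), with the genes per bin on the vertical axis. Red lines mark the measured members and the dark line Zim1. Peg3 (-1.70) and Zim1 (-1.95) lie in the left tail, and the other members lie between -0.83 and 0.44.

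The wider list of 60 other imprinted genes had 41 in the table and 26 with at least 20 stromal UMIs. Of these, 1 was 2-fold or more lower (Zim1), 3 were higher and 22 lay between, with a median of 0.28. Those higher were Qpct (65.0 against 18.3 CPM, log2 ratio 1.59), Peg10 (29.5 against 9.15 CPM, 1.28) and Rian (43.0 against 15.2 CPM, 1.24), a non-coding RNA of the Meg3 domain. Qpct and Peg10 were each listed in 1 WT set and Rian in 2, and Peg10 had 3 WT UMIs (interval -0.03 to 4.06). Among the 10 of the list found in every set, such as Gnas (0.00) and Igf2r (0.34), 0 were past 2-fold either way and the median was -0.04. The shares past 2-fold in this list, 1 and 3 of 26, stand beside the 2.43% and 14.1% of all genes.

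Of 23 genes of the IGF and growth pathways that work with the members, 22 were in the table and 19 had at least 20 stromal UMIs. None was 2-fold or more lower and 3 were higher, beside 2.43% and 14.1% of all genes, with a median of 0.10. Those 3 were Irs1, an adaptor of the insulin receptor (50.3 against 9.15 CPM, log2 ratio 1.97, 0.81 to 4.80), Pparg, the master regulator of adipogenesis (43.0 against 9.15 CPM, 1.76, 0.57 to 4.58), and Cdkn1b, a cell cycle inhibitor related to Cdkn1c (70.0 against 27.4 CPM, 1.21, 0.32 to 2.55). Irs1 and Pparg had 3 WT UMIs each, and Irs1 was listed in 1 WT set. Pparg is also one of the 8 P2 markers, whose summed level went the other way in stromal cells (log2 ratio -0.53). Among the 19, non-overlapping sets were seen for Igfbp7 alone, which encodes a secreted IGF binding protein and was lower in KO (1179 against 1668 CPM, log2 ratio -0.50, -0.65 to -0.35), beside 1.52% of all genes with all KO sets below all WT sets. It was named after its values were seen.

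Cdkn1c was 172 CPM in endothelial-like and 153 CPM in stromal cells of KO, with overlapping intervals (126 to 229 and 128 to 183 CPM), and 137 and 192 CPM in WT. H19 was 504 CPM in pericyte-like cells of KO (16 UMIs in 4 cells) and 255 CPM in stromal cells, while in WT the 26 pericyte-like cells held 0 UMIs. Outside the stromal classes Peg3 was 30.6 CPM in KO and 104 CPM in WT, and the sets did not overlap (26.3 to 37.3 against 49.4 to 132 CPM), beside 2.5% of the 10129 genes with at least 20 UMIs there with all KO sets below all WT sets. Most of this came from clusters that no marker list named, with 76.0 CPM in KO and 386 CPM in WT from 43 and 27 UMIs. Endothelial-like cells had 33.0 and 68.3 CPM (9 and 4 UMIs), epithelial-like cells 54.7 and 112 CPM (2 and 5 UMIs), and T and B cell-like cells 13.2 and 42.7 CPM (12 and 3 UMIs), whose intervals overlapped between genotypes. In T and B cell-like cells H19 had 17.6 CPM in KO and 114 CPM in WT (16 and 8 UMIs). Meg3 had 16.5 and 85.3 CPM there (15 and 6 UMIs). The log2 ratios there were -2.39 for H19 and -2.07 for Meg3, against -0.83 and 0.44 in stromal cells. The part of these levels in the stromal ratios was not tested. T and B cell-like cells should lack stromal RNA, so levels of this size elsewhere are not read as expression.

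**Figure D5:**
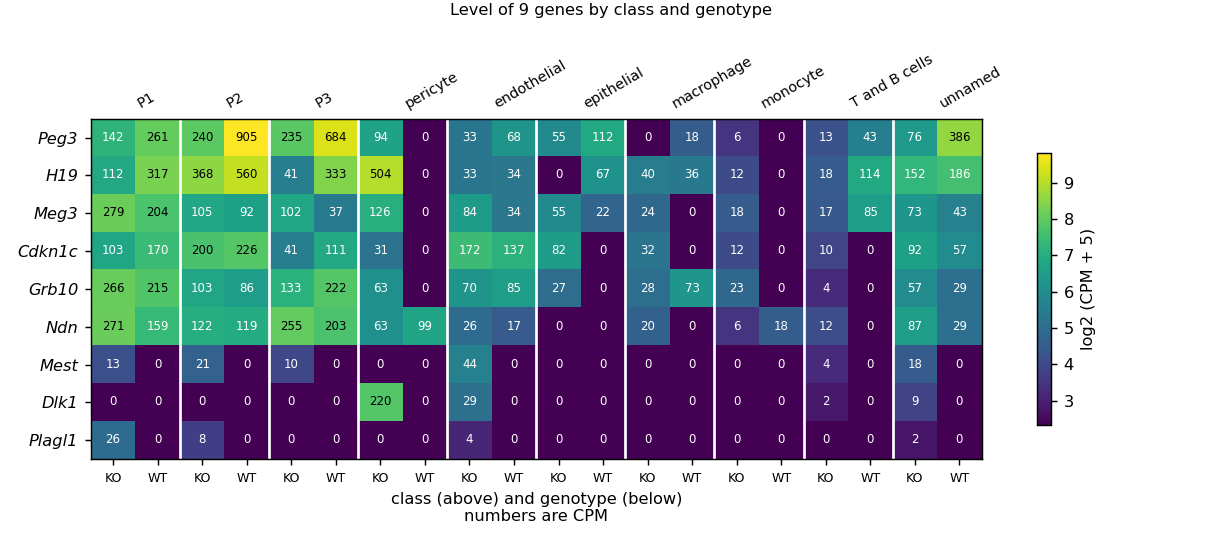
Level of the 9 members found, in CPM, by cell class and genotype. Colour is log2 of the level after 5 CPM was added, and the numbers are CPM. Peg3 is highest in WT P2- and P3-like cells (905 and 684 CPM), Dlk1 in KO pericyte-like cells (220.4 CPM), and Mest, Dlk1 and Plagl1 are listed at 0 in all WT classes.

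Over the 12 named classes in each genotype (24 points, log2 of CPM + 5), H19 had the highest Pearson correlation with Peg3 among the members (0.82), followed by Grb10 (0.72), Meg3 (0.71), Cdkn1c (0.70) and Ndn (0.59). Among the 3659 genes with at least 200 UMIs, the 4 other genes with the highest correlation were Maged1 (0.89), Spon1 (0.88), Frmd6 (0.87) and Plat (0.87). These points share libraries and the step from stromal to other classes, and they include the stromal levels for which Peg3 was picked, so a gene that is lower in KO stromal cells gains from them. None of the 4 was 2-fold lower in KO stromal cells, with log2 ratios of -0.04 for Maged1, -0.59 for Spon1, 0.31 for Frmd6 and -0.26 for Plat.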

How the data were processed

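The authors deposited a single table of UMI counts per gene and cell, whole numbers that were not normalised. According to the methods of the study and the submitters' processing notes, reads were demultiplexed with bcl2fastq 2.20, aligned with STAR on mm10 (GENCODE), counted with Drop-seq tools, and depth was evened with scuttle, before or after deposit not stated. Strand use in counting is not given in the sources used here. Cells held 101 to 994 genes and at most 20.0% mitochondrial UMIs, and none was removed before clustering. The 38 cells of 1 cluster under 60 cells were left out of all classes, the non-stromal one included. Doublets were not called.

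Sets were integrated in Seurat 5.3.0 (2000 features without the members, 30 dimensions) and clustered at resolution 0.8. Clusters of 60 or more cells, 17 of 18, were named from marker lists when the mean log2 fold and at least 3 markers passed 0.5. Counts were summed per class and genotype and scaled to CPM of all UMIs. "Lower" and "higher" in counts of genes mean a log2 ratio of -1 or 1 with at least 20 UMIs, which is a size and no test. Intervals are exact (Poisson, Clopper-Pearson or conditional, 95%). The ratio script was tested on simulated data. Gene coordinates are from GENCODE vM21 (GRCm38). All members are named, and from each other list at most 3 genes each way past the fold. Of the 5 genes most like Peg3 that the rule names, 1 is not reported here. The members, lists and rule were chosen with earlier results of these data known. Alternatives included TMM (edgeR 4.0.16) and DESeq2 1.42.0 size factors, other pseudocounts, minimums and clusterings, and leaving out each barcode set.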

Additional observations from a re-analysis of the deposited data

How the results depend on the processing

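No paired analysis was possible because the design names 1 mouse per genotype and no test was run. The Peg3 log2 ratio in stromal cells (-1.70) stayed at -1 or below under all 24 alternatives. It left its counting interval under 3 of them, at -2.03 in 5880 cells called stromal by their own markers, -2.10 with cells thinned to 200 UMIs, and -1.40 in stromal cells without a UMI of the blood cell list. Thinned cells were clustered and named anew, giving 3031 stromal cells against 2657, so this alternative changed the cells as well as their depth. Leaving out each barcode set gave Peg3 ratios of -1.84 to -1.55. The median of the other 5 members (0.09) stayed near 0 but not on 1 side of it, from -0.21 to 0.23 when a set was left out, was -0.29 with cells thinned to 200 UMIs, and was -0.83 with a minimum of 200 UMIs, when only H19 remained. The number of members at least 2-fold lower was 1, but 2 with TMM and with DESeq2 size factors, which moved all plain ratios by -0.19 and -0.20, and 1 to 2 when a set was left out. The second gene was H19, at -1.01 with TMM, -1.03 with size factors, -1.03 without KO set KO5_p3 and -1.10 without WT set WT4_p2. Under either scaling Grb10 turned from 0.09 to -0.08 or -0.10, and it was -0.21 without WT4_p2, -0.19 with the sets weighted equally and -0.78 with cells thinned to 200 UMIs, the one alternative that took it out of its counting interval. Cdkn1c turned from -0.32 to 0.16 without cells holding blood cell UMIs. Ndn turned from 0.32 to -0.07 with cells thinned to 200 UMIs. Leaving out each set within subtypes was also chosen after seeing the data. The cause of these moves was not tested. Counting only sets that list a gene, an alternative chosen after seeing the data, left Meg3 at 0.31, and the 4 members listed in all sets had a median of -0.11. Dlk1, Mest and Plagl1 were listed at 0 in all WT sets and have no WT value, and the part of depth in this was not tested.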
